A study of Homo sapiens with 4 samples.

Results

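Heat shock protein genes encode molecular chaperones, which bind unfolded or partly folded proteins and help them to fold or to be degraded. The 10 genes described here were chosen by symbol among the 36601 genes listed in the deposited matrices. They comprise 6 heat-inducible genes (HSPA1A, HSPA1B, DNAJB1, HSPH1, HSP90AA1 and HSPB1), 2 mainly constitutive genes (HSPA8 and HSP90AB1) and 2 genes of the mitochondrial chaperonin (HSPD1 and HSPE1). All 10 passed the floor of a mean of 10 CPM (UMIs per 1000000 UMIs of a library) over the libraries, which 8507 genes reached. BEAS-2B, a human cell line from normal bronchial epithelium made immortal with viral genes, was measured as an unirradiated control and after 10 mGy, 100 mGy or 1 Gy from a Cs-137 gamma source. The cells were irradiated in T25 flasks at 100 mGy per min and cultured for 30 min before single-cell processing. Each dose has 1 library of the droplet-based 3′ method, in which a unique molecular identifier (UMI) marks each captured mRNA molecule, so that dose and library cannot be told apart and no test between doses could be made. A ratio to the control is given with its exact 95% interval, which covers counting error only.

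In the textbook account of the heat shock response, unfolded proteins draw HSP70 and HSP90 chaperones away from heat shock factor 1 (HSF1). The freed factor forms trimers, binds heat shock elements in promoters and switches on the inducible genes within minutes. Constitutive chaperones fold newly made proteins in unstressed cells, and the mitochondrial chaperonin folds proteins imported into the matrix. A heat shock element is a run of GAA units in alternating orientation.

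The promoter windows are shown first because HSF1 acts on its targets through these elements. Of the 16 RefSeq start sites of the members (GRCh38.p14), 8 had the letters GAANNTTC or TTCNNGAA, searched on both strands, in the 250 bases before the start, against 11.6% of 35116 windows of the same length. Adjoining matches can share a GAA or TTC unit. The match is a description of letters and not a measured binding site. The sites below are 30 bases long, are written along the gene's strand and show each match in capitals.
HSPA1A, chr6:31815426-31815455, plus strand: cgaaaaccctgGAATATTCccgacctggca
HSPA1B, chr6:31827622-31827651, plus strand: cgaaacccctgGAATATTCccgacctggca
DNAJB1, chr19:14518456-14518485, minus strand: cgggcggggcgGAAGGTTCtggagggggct
DNAJB1, chr19:14518426-14518455, minus strand: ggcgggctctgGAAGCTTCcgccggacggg
HSP90AA1, chr14:102087104-102087133, minus strand: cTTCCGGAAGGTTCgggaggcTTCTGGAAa
HSPB1, chr7:76302480-76302509, plus strand: ccttaacgagaGAAGGTTCcagatgagggc
HSPA8, chr11:123062345-123062374, minus strand: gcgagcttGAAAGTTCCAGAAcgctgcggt
HSPA8, chr11:123062170-123062199, minus strand: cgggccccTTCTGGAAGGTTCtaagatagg
HSP90AB1, chr6:44247770-44247799, plus strand: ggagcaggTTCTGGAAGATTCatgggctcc
HSP90AB1, chr6:44247823-44247852, plus strand: tgagattgTTCTGGAAGCTTCtggattctg
HSPD1, chr2:197500061-197500090, minus strand: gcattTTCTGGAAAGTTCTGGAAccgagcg

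Matches were thus present for 8 of the 10 genes, among them both constitutive genes and HSPD1. The sites of HSP90AA1, HSPA8 and HSPD1 lie in exons of other annotated transcripts of these genes (GENCODE 29), the HSPD1 site also in an exon of HSPE1, and the other sites lie outside annotated exons. The windows of HSPH1 and HSPE1 held no match, which says only that these letters are not in those windows. HSPD1 and HSPE1 are transcribed away from each other, and their nearest annotated starts lie 105 bases apart. HSPA1A and HSPA1B encode almost the same HSP70 protein from neighbouring genes. The stretch of each promoter that lies furthest from the start, 171 bases long, is printed here because it shows how far this likeness goes.
HSPA1A, chr6:31815293-31815463, plus strand: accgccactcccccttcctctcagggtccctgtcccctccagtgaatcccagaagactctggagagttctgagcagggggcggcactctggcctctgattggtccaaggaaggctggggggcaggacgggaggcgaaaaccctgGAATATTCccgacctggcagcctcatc
HSPA1B, chr6:31827488-31827658, plus strand: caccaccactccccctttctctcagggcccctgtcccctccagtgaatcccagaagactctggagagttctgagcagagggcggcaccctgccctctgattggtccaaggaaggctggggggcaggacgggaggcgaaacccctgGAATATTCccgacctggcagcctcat

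Over the whole window of 250 bases the aligned promoters were 93.6% identical, and both held the same element, GAATATTC, at 106 and 105 bases before the start. The transcripts part at their 3′ ends, from which the libraries were made. In the last 500 bases, 14.6% of the 90-base stretches of HSPA1A also occurred in other annotated transcripts, those of HSPA1B and AL671762.1, and 0 of those of HSPA1B did. The counts of the pair were therefore read both apart and summed, and the split between them is uncertain. In the same search 12.4% of the stretches of HSPB1 recurred in the pseudogene HSPB1P1, and 32.6% of those of HSPE1 in HSPE1-MOB4 or in HSPE1 pseudogenes. The other 6 members shared 0.

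The 4 libraries held 11111 to 21514 barcodes and 211752280 to 285806026 UMIs, of which the 10 genes took 0.619% in the control and 0.687%, 0.692% and 0.605% in the irradiated libraries, in order of dose. Median depth per barcode ranged from 12417 to 19771 UMIs. Barcodes whose UMI count stayed under the median of their library even after multiplication by 3, called low-UMI barcodes, were 19.6% of those in the control and 25.4% to 41.4% of those in the irradiated libraries. Any pair of libraries shared 76 to 134 barcodes, at most 0.864% of the smaller library. The epithelial keratins KRT7, KRT8 and KRT18 were present at 219 to 645 CPM, whereas the epithelial markers KRT19 and EPCAM stayed under 3 CPM and KRT5 and CDH1 under 1 CPM. Of 10 markers of other cells, CD3E had 0 UMIs in every library and PTPRC, PECAM1, HBB and ALB at most 17 UMIs, VWF and COL1A2 stayed under 1 CPM, and CD68, PDGFRB and COL1A1 were found at 7.02 to 25.6 CPM. The part of these markers in any result was not tested.

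**Figure D1:**
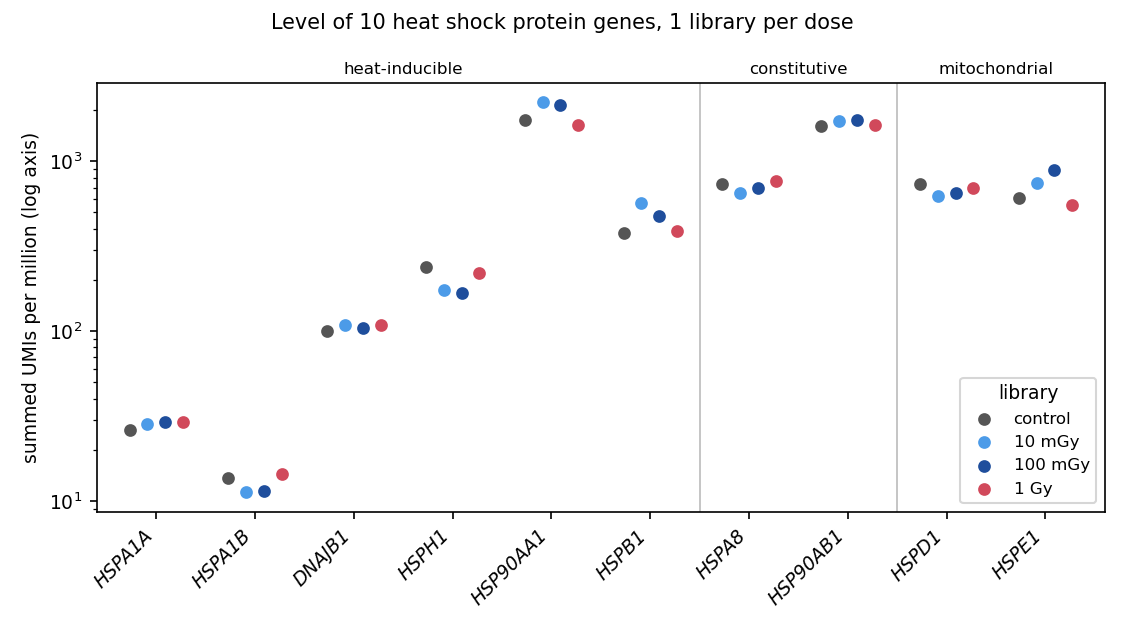
Level of each heat shock protein gene in the 4 libraries, in CPM on a log axis, with the genes grouped by role. Each point is 1 library, and the levels run from 11.3 CPM for HSPA1B at 10 mGy to 2231 CPM for HSP90AA1 at 10 mGy.

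At the 2 low doses, on the CPM scale, members lay on both sides of the control. HSPB1, HSP90AA1 and HSPE1 were higher than in the control past 1.2-fold, the threshold of the study, at 10 mGy and again at 100 mGy. HSPH1 and HSPA1B were lower past this threshold at both doses, and the other 5 members lay within it. HSPA1B was close to the threshold and came within it at both low doses when totals left out ribosomal protein and mitochondrially encoded genes (0.873 and 0.901), with means of scaled UMIs over barcodes (0.837 and 0.842) and without the 5% of barcodes with the highest UMI count (0.838 and 0.855). At 1 Gy 0 of the 10 members passed it in either direction, and their ratios ran from 0.909 for HSPE1 to 1.11 for HSPA1A. The 3 comparisons share the control library.

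These counts stand against a wide background. At 10 mGy 15.4% of the 8507 genes were higher and 53.0% lower past 1.2-fold, beside 3 and 2 of the 10 members. At 100 mGy 14.0% were higher and 58.9% lower, again beside 3 and 2 members. At 1 Gy 1.28% were higher and 0.846% lower, and 0 members were. In order of dose, the median gene had a log2 ratio of -0.30, -0.38 and 0.02, and 9, 9 and 5 of the 10 members lay above that median. With median ratio scaling, which sets the median gene near 1, the shares of all genes became 30.6% higher and 27.3% lower at 10 mGy, 31.8% and 29.0% at 100 mGy, and 0.658% and 1.59% at 1 Gy. The split of the members moved with the scale as well. With this scaling 6 members were higher and 0 lower past 1.2-fold at 10 mGy, 7 and 0 at 100 mGy, and 0 in either direction at 1 Gy, and HSPA1B, HSPA8 and HSPD1 lay above the control at the low doses. HSPH1 stayed below the control but within the threshold. Without scaling, as UMIs per barcode, 0 were higher and 7 lower at 10 mGy, 0 and 9 at 100 mGy, and 0 and 10 at 1 Gy, and every member but HSPB1 at 10 mGy lay below the control. On that scale 84.6%, 90.1% and 97.2% of all genes were lower past 1.2-fold, in order of dose.

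**Figure D2:**
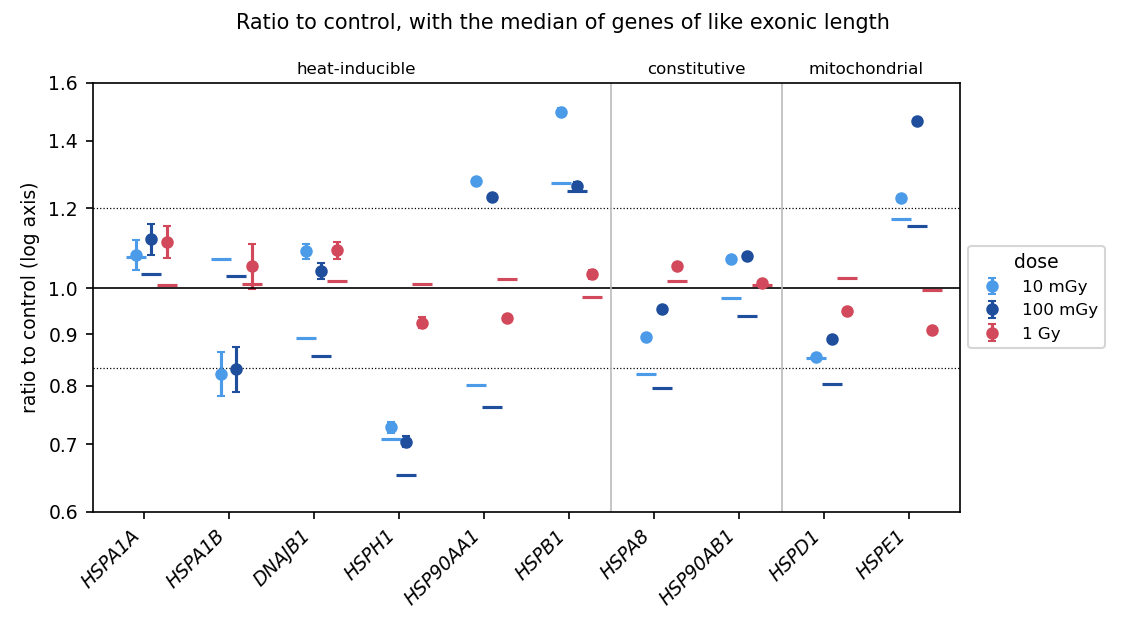
Ratio of each member to the control at 10 mGy, 100 mGy and 1 Gy on a log axis. Points are ratios of CPM with their exact 95% counting intervals, horizontal dashes are the median ratio of the 501 genes nearest in exonic length, and dotted lines mark 1.2-fold. The 3 highest points belong to HSPB1 at 10 mGy, HSPE1 at 100 mGy and HSP90AA1 at 10 mGy, whereas the 1 Gy points stay within 1.2-fold.

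HSPA1A and HSPA1B, the stress-induced HSP70 genes and the usual first readout of HSF1, were the least abundant members. HSPA1A stood at 26.2 CPM in the control and at 28.2, 29.2 and 29.1 CPM in order of dose. All 3 irradiated libraries were above the control in CPM, by ratios of 1.08 (1.04 to 1.12), 1.12 (1.08 to 1.16) and 1.11 (1.07 to 1.15). With means of log scaled UMIs over barcodes HSPA1A lay just below the control instead, at 0.954, 0.958 and 0.999. Median ratio scaling put it past 1.2-fold at the low doses, at 1.33 and 1.459, and at 1.088 at 1 Gy. HSPA1B stood at 13.7 CPM in the control and at 11.3, 11.4 and 14.4 CPM in order of dose. Its ratios were 0.823 (0.782 to 0.865), 0.831 (0.788 to 0.875) and 1.05 (0.999 to 1.11), so the low-dose libraries were the lower ones. Summed, the pair gave 39.9, 39.5, 40.6 and 43.5 CPM in the order of dose. In CPM the opposite shifts of the 2 genes at the low doses cancelled in the sum, whose ratio was 0.991 (0.964 to 1.02), 1.02 (0.990 to 1.05) and 1.09 (1.06 to 1.12). The shifts were not opposite on every scale. At the low doses HSPA1B was at 1.013 and 1.084 with median ratio scaling and at 0.692 and 0.718 with means of log scaled UMIs, on the same side of the control as HSPA1A each time.

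DNAJB1 encodes an HSP40 protein that hands clients to HSP70, and it is itself a rapid target of HSF1. It was counted at 100.1 CPM in the control and at 108.9, 104.2 and 109.2 CPM after irradiation. In CPM every irradiated library was above the control by less than 1.1-fold, with ratios of 1.09 (1.07 to 1.11), 1.04 (1.02 to 1.06) and 1.09 (1.07 to 1.11). At the low doses the direction and the size depended on the scale, with 0.876 and 0.876 for means of log scaled UMIs and 1.34 and 1.36 for median ratio scaling. HSPH1, an HSP110 that exchanges the nucleotide on HSP70, stood at 239 CPM in the control and at 174, 169 and 221 CPM after irradiation. The control was its highest library, and the ratios were 0.727 (0.718 to 0.736), 0.704 (0.695 to 0.713) and 0.924 (0.912 to 0.935).

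HSP90AA1 encodes the inducible cytosolic HSP90, which matures kinases and steroid receptors. Its level was 1747 CPM in the control, with 2231 and 2154 CPM in the low-dose libraries and 1633 CPM at 1 Gy. The low-dose libraries were above the control by 1.28 (1.27 to 1.28) and 1.23 (1.23 to 1.24), and the 1 Gy library was below it, at 0.934 (0.930 to 0.939). HSPB1 encodes HSP27, a small heat shock protein that holds unfolded proteins and binds the actin cytoskeleton. It stood at 378 CPM in the control, with 566 and 477 CPM in the low-dose libraries and 390.3 CPM at 1 Gy. HSPB1 had the highest ratio of the members at 10 mGy, 1.497 (1.485 to 1.51), and ratios of 1.262 (1.251 to 1.274) at 100 mGy and 1.03 (1.02 to 1.04) at 1 Gy. Among the 8507 genes it ranked 430 from the top at 10 mGy, and HSP90AA1 ranked 1009.

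The constitutive chaperones stayed within 1.2-fold of the control at every dose on the CPM scale. HSPA8, the HSC70 that folds new proteins and uncoats clathrin vesicles, stood at 731 CPM in the control and at 653, 696 and 768 CPM in order of dose. Its ratios were 0.8942 (0.8882 to 0.9003), 0.953 (0.946 to 0.959) and 1.05 (1.04 to 1.06), in CPM lower at the low doses and higher at 1 Gy. With median ratio scaling the low-dose ratios were 1.10 and 1.24, and with means of log scaled UMIs they were 0.727 and 0.785, with 0.959 at 1 Gy. HSP90AB1, the constitutive partner of HSP90AA1, stood at 1618 CPM in the control and at 1729, 1742 and 1636 CPM in order of dose. In CPM it was slightly above the control in every irradiated library, with ratios of 1.07 (1.06 to 1.07), 1.08 (1.07 to 1.08) and 1.011 (1.006 to 1.015), whereas means of log scaled UMIs put it at 0.989, 0.919 and 0.998. Median ratio scaling put HSP90AB1 past 1.2-fold at the low doses, at 1.316 and 1.405.

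HSPD1 and HSPE1 encode HSP60 and its lid HSP10, which work as 1 chaperonin in the mitochondrial matrix. HSPD1 stood at 733 CPM in the control and at 625, 653 and 695 CPM in order of dose. HSPE1 stood at 605 CPM in the control, and its 744 and 886 CPM at the low doses were above this level and its 550.0 CPM at 1 Gy below it. On the CPM scale the partners thus lay on opposite sides of the control at the low doses. The ratios of HSPD1 were 0.853 (0.848 to 0.859), 0.891 (0.885 to 0.897) and 0.948 (0.942 to 0.955), below 1 at every dose in CPM. With median ratio scaling HSPD1 was at 1.05 and 1.16 at the low doses, on the same side of the control as HSPE1 at 1.51 and 1.91. In CPM the ratios of HSPE1 were 1.23 (1.22 to 1.24), 1.46 (1.45 to 1.47) and 0.909 (0.901 to 0.916). On that scale HSPE1 and HSPB1 were the members that differed most between the low doses, in opposite directions. Their 100 to 10 mGy ratios were 1.192 (1.184 to 1.199) and 0.843 (0.837 to 0.849).

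By role, the median log2 ratio of the 6 inducible members was 0.12, 0.11 and 0.06 in order of dose. That of the constitutive pair was -0.03, 0.02 and 0.04, and that of the mitochondrial pair 0.03, 0.19 and -0.11. Within the inducible group the ratios ran from 0.727 for HSPH1 to 1.497 for HSPB1 at 10 mGy, a range that contains every constitutive and mitochondrial member. This did not hold at the other doses. At 100 mGy HSPE1, at 1.464, lay above the highest inducible member, HSPB1 at 1.262. At 1 Gy HSPE1, at 0.909, lay below the lowest inducible member, HSPH1 at 0.924.

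The low-dose ratios of all genes moved with exonic length. Among the 501 genes nearest to each member in exonic length (GENCODE 29, all exons of a gene joined), the median ratio at 10 mGy was 1.27 around HSPB1, with 1634 exonic bases, and 0.708 around HSPH1, with 8390. Relative to such neighbours HSPH1 had a ratio of 1.03 at 10 mGy and 1.08 at 100 mGy, and HSPB1 of 1.178 and 1.011. HSP90AA1 was the member furthest above its neighbours, by 1.59 at 10 mGy and 1.62 at 100 mGy. HSPA1B was the only member below its neighbours at 10 mGy by more than 1.2-fold, at 0.769, where 24.3% of all genes were higher and 21.9% lower past this fold on the same scale. At 100 mGy HSPA1B was again the only one, at 0.808, and 3 members were higher, beside 25.7% of all genes higher and 23.8% lower. DNAJB1 was above its neighbours by 1.22 at both low doses, and HSPE1 by 1.05 at 10 mGy and 1.27 at 100 mGy. Its partner HSPD1 came to 1.00 and 1.11, so that relative to such neighbours the chaperonin genes differed little at 10 mGy.

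When length was taken from the longest protein-coding transcript, an alternative chosen after the data were seen, HSP90AA1 was again furthest above its neighbours, at 1.63 and 1.66. HSPE1, with a transcript of 950 bases, came to 0.890 at 10 mGy and 1.04 at 100 mGy, close to the 0.950 and 1.04 of HSPD1. HSPB1, with 909 bases, came to 1.06 and 0.875, and HSPA1B to 0.920 and 0.982. HSP90AB1 came to 1.23 and 1.34, and HSPA1A to 1.2 and 1.303. With exonic length both had stayed within 1.2-fold, at 1.094 and 1.148 for HSP90AB1 and 1.005 and 1.082 for HSPA1A. On the scale of transcript length 21.2% of all genes were higher past 1.2-fold at 10 mGy and 22.3% at 100 mGy. On this scale HSPH1 was at 1.04 and 1.09, above 1 as with exonic length. The part of transcript length in any single ratio was not tested.

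Other chaperone genes gave a wider frame. Their counts at 10 mGy stand beside the 15.4% of all genes that were higher and the 53.0% that were lower. Of 18 further genes linked to HSF1, 15 passed the floor, with 1 higher and 7 lower past 1.2-fold at 10 mGy and a median log2 ratio of -0.26, near the median of all genes. The polyubiquitin gene UBB had a ratio of 1.28 at 10 mGy, whereas the HSP40 gene DNAJB4 had 0.601 and the HSP70-HSP90 adaptor STIP1 0.625. Of the regulators themselves, HSF1 had a ratio of 0.694 at 10 mGy and HSF2 0.751, and HSBP1, which binds HSF1 trimers, 1.404. These are CPM ratios, on which the median gene was at 0.81. At 1 Gy these 3 genes lay between 0.984 and 1.03 in CPM. Relative to genes of like exonic length, HSF1 came to 0.875, HSF2 to 0.751 and HSBP1 to 2.05 at 10 mGy.

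Cytosolic co-chaperones had 0 of 16 genes higher and 10 lower past 1.2-fold at 10 mGy, where 53.0% of all genes were lower. Their extremes were HSPA14 at 0.612 and the kinase co-chaperone CDC37 at 0.649 on the low side, and UNC45A at 1.07 and the ubiquitin ligase STUB1 at 1.10 on the high side. Genes of the lists, HSPA14 among them, were counted by the first entry of their symbol only. Of 12 other mitochondrial chaperones and proteases, 1 was higher and 7 were lower. The lowest were the protease subunit CLPX at 0.589 and DNAJA3 at 0.641, and the highest the import motor subunit DNAJC19 at 1.29 and the protease subunit CLPP at 1.199. Of 15 chaperones of the endoplasmic reticulum that passed the floor, 2 were higher and 8 lower at 10 mGy, shares near the 15.4% and 53.0% of all genes. At 100 mGy 2 of the 15 were higher and 11 lower, beside 14.0% and 58.9% of all genes. At 10 mGy HYOU1 was at 0.562 and DNAJC3 at 0.607, while MANF was at 1.36 and SDF2L1 at 1.44. At 1 Gy 0 genes of these 4 lists and the HSF regulators passed 1.2-fold. Centred on genes of like exonic length, median log2 ratios at 10 mGy were -0.03 for the further HSF1-linked genes and 0.03 for cytosolic co-chaperones. They were -0.05 for the other mitochondrial list and -0.24 for the endoplasmic reticulum list. In CPM these 4 medians were -0.256, -0.345, -0.352 and -0.368, in the same order. Immediate early genes are markers of a quick transcriptional response. Of 11 immediate early genes above the floor, 2 were higher and 8 lower at 10 mGy, from FOSB at 0.418 and FOS at 0.444 to EGR1 at 1.30 and JUND at 1.495. At 1 Gy 2 were higher past 1.2-fold, FOSB at 1.37 and EGR1 at 1.34, and JUND was at 1.113. The shares of all genes were 15.4% higher and 53.0% lower at 10 mGy and 1.28% higher at 1 Gy.

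**Figure D3:**
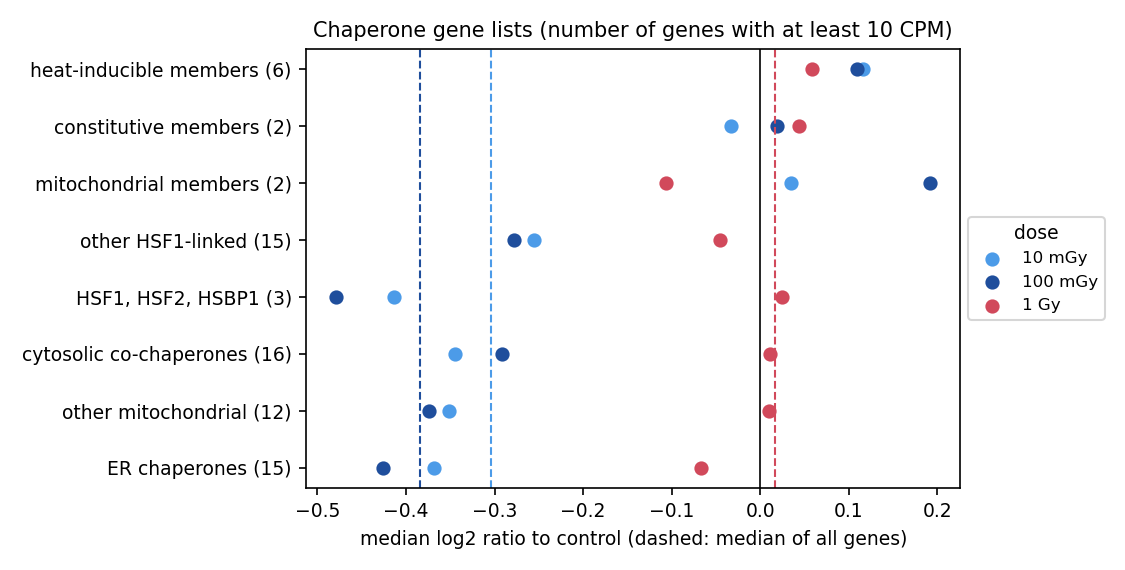
Median log2 ratio to the control of the members by role and of 5 further chaperone and regulator lists, with the number of genes of at least 10 CPM in parentheses. Points are the 3 doses and dashed lines the median of all 8507 genes at the same dose. The low-dose medians of the 3 member groups lie right of the all-gene lines, and those of the HSF regulators and the endoplasmic reticulum list lie left of them at both low doses.

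Within libraries, the members were next compared between classes of barcodes. In the 10% of barcodes with the most UMIs of 21 G2/M genes, among barcodes thinned to 5000 UMIs each, HSPA1A was 1.46 to 1.61 times as high as in the other barcodes of the same library and HSPA1B 1.43 to 1.67 times. The median gene differed by a ratio of 1.00 to 1.02. In the control, HSPA1A stood at 35.5 CPM in the G2/M-high barcodes and 24.4 in the others, from 161 and 995 UMIs. DNAJB1 was 1.15 to 1.27 times, HSPH1 1.17 to 1.25 times, HSPA8 1.176 to 1.199 times and HSP90AA1 1.119 to 1.196 times as high. For these 6 genes the counting interval lay above 1 in all 4 libraries, as it did for 8.11% of all genes, and for HSPE1 it lay below 1 in all of them, as for 6.78%. Such shares also depend on how many UMIs a gene has. HSPB1, HSPD1 and HSPE1 lay below 1 in every library, between 0.905 and 0.969, and HSP90AB1 between 0.959 and 1.00.

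The G2/M class is a range and not a cell type. Its lower edge lay at 32 to 42 UMIs of the G2/M genes, and 194 to 349 barcodes per library were within 1 UMI of that edge. The class was also deeper before thinning, with a median of 26580 UMIs against 21334.5 in the control and 23702.5 against 19671 at 10 mGy, and a part of depth or of doublets in these ratios was not tested. The 21 genes of the G2/M list had 2 higher and 10 lower past 1.2-fold at 10 mGy, beside 15.4% and 53.0% of all genes, from MKI67 at 0.493 and CENPE at 0.494 to CCNB2 at 1.25 and UBE2C at 1.57.

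**Figure D4:**
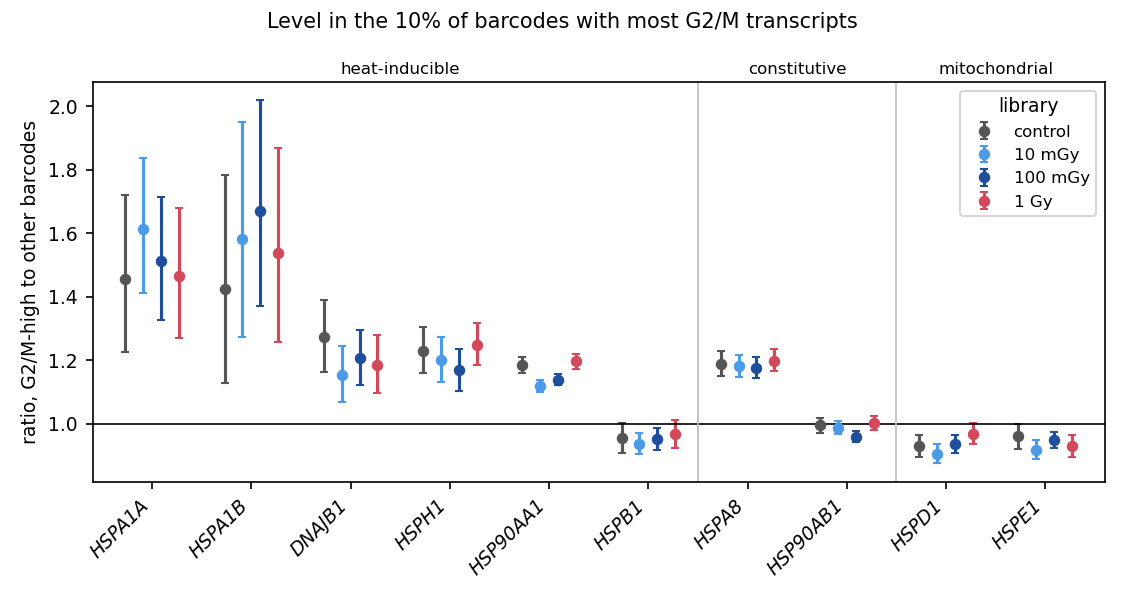
Ratio of the level in G2/M-high barcodes to that in the other barcodes of the same library, for each member and library, with exact 95% counting intervals. HSPA1A and HSPA1B lie between 1.43 and 1.67 in the 4 libraries, and HSPB1, HSPD1 and HSPE1 lie below 1.

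HSP90AA1, HSPB1 and HSPE1, the 3 members that were higher past 1.2-fold at both low doses, were relatively more abundant in low-UMI barcodes. HSP90AA1 was 1.10 to 1.42 times, HSPB1 1.15 to 1.45 times and HSPE1 1.19 to 1.38 times as high in them as in the other barcodes, in each of the 4 libraries. The median gene had a ratio of 0.940 to 0.988, and 7.89% of all genes had a counting interval above 1 in all 4 libraries and 8.91% below it. DNAJB1 was lower in them in every library, at 0.775 to 0.912, and so was HSPA1B, at 0.423 to 0.807, although from only 35 to 142 UMIs per library. The interval of HSPA1B lay below 1 in 3 of the 4 libraries. HSPA1A in low-UMI barcodes was at 1.17 (1.06 to 1.28) at 10 mGy and at 0.816 to 0.974 in the other libraries. Without these barcodes the ratios of HSP90AA1, HSPB1 and HSPE1 were 1.27, 1.48 and 1.21 at 10 mGy and 1.24, 1.26 and 1.46 at 100 mGy, and those of HSPH1 and HSPA1B 0.736 and 0.825, then 0.705 and 0.828. In the 10% of barcodes with the highest share of mitochondrially encoded UMIs, HSPA8 and HSP90AA1 were at 0.837 to 0.909 and 0.913 to 0.961. Their intervals lay below 1 in all 4 libraries, and 0 members had an interval above 1 in all of them. HSPA1A (0.7942 to 0.8897), HSP90AB1 (0.9275 to 0.9833) and HSPD1 (0.9165 to 0.9784) also had ratios below 1 in all 4. Their intervals lay below 1 in 2, 3 and 3 libraries. The median gene was at 0.972 to 0.992, so that HSP90AA1 in the control, at 0.961 (0.939 to 0.984), was not apart from it, and 2.64% of all genes had an interval below 1 in all 4 libraries and 0.329% above it. HSPD1 and HSPE1, which are encoded in the nucleus, lay between 0.917 and 1.03 there.

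The study compares the spread of expression over cells between the low doses, and the members were described on that measure after thinning each barcode to 5000 UMIs. A barcode with at least 1 UMI of HSPA1A was found in 11.8% (11.2 to 12.5) of barcodes in the control and, in order of dose, in 13.1% (12.5 to 13.7), 12.6% (12.1 to 13.2) and 13.4% (12.8 to 14.1) after irradiation, with exact binomial intervals. Without thinning and over every barcode, which mixes depths, the shares were 34.7%, 26.9%, 26.3% and 29.0%. Random sampling of a single common level would give 11.98%, 13.1%, 12.8% and 13.6%. The highest count of HSPA1A in a barcode was 7 UMIs of 5000 in the control and 4 in each irradiated library. No count was set for a strong HSP70 response, and barcodes under 5000 UMIs were left out. Whether a group of barcodes with such a response exists was therefore not tested. HSPA1B was found in 5.42% to 6.85% of thinned barcodes and never above 3 UMIs. Barcodes were not sorted into cell types, so none that lacks these genes could serve as a reference. The part of free RNA in such low shares was not tested.

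DNAJB1 was found in 38.5% to 41.1% of thinned barcodes, HSPH1 in 54.8% to 66.9%, and both HSP90 genes in at least 99.8%. The variance over the mean, which is 1 for random sampling alone, was 1.00 to 1.05 for HSPA1A, 1.007 to 1.037 for HSPA1B and 1.02 to 1.05 for DNAJB1, around the median of 1.015 to 1.018 over all genes. HSP90AA1 had 1.71 to 2.12 and ranked 27 to 50 of 8507, and HSP90AB1 had 1.33 to 1.59. This measure grows with the level, and these are the most abundant members. The excess dispersion, the standard deviation over the mean that is left once the variance of random sampling is subtracted, was 28.7% to 31.6% for HSP90AA1. The value was higher for HSPH1, at 32.86% to 39.99%, in each of the 4 libraries. At 10 mGy the 2 genes were close, with 32.9% for HSPH1 and 31.6% for HSP90AA1. No interval is given for this measure, so such a gap may lie within counting error. For HSPA1A and HSPA1B, with a variance over the mean near 1 and few UMIs, this measure was not read.

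The dispersion, the standard deviation over the mean, was lower at 100 mGy than at 10 mGy for 3 of the 10 members, HSPA1B, HSP90AA1 and HSPE1, and for 30.7% of all genes. The differences were small. HSP90AA1 had 43.5% at 10 mGy and 42.8% at 100 mGy, HSPE1 55.2% and 53.2%, and HSPA1B 424.5% and 421%. HSP90AB1 went the other way, with 39.8% and 42.4%. Without thinning, the count was 0 of 10, and no share of all genes was taken on that scale to set beside it. Outside low-UMI barcodes the median depth was 19927 UMIs at 10 mGy and 15108 at 100 mGy. The part of depth in this count was not tested. In excess dispersion HSP90AA1 had 31.6% at 10 mGy and 30.3% at 100 mGy, whereas HSPE1 had 18.0% and 23.4%, the other direction. Thinned to 2000 UMIs, the dispersion of HSP90AA1 also turned, with 55.8% and 57.0%. That of HSPE1 (84.4% and 78.2%) and HSPA1B (693.7% and 673.3%) stayed lower at 100 mGy.

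Across thinned barcodes of a library the members were weakly correlated. Of their 45 pairs, 30 had a Pearson r below 0.05 in all 4 libraries, from 9060 to 14271 barcodes each. No share of all gene pairs stands beside this count. For comparison, the smallest r of a member over the 4 libraries had a median over all genes of -0.015 to -0.0078. Ranked by that value among 8506 genes, other members stood from 1 (HSP90AA1 and HSP90AB1 for each other) to 8483 (HSP90AB1 for DNAJB1). Pairs below 0.05 could also rank high, as HSPE1 did for HSPB1, at 33 with r of 0.0222 to 0.0404. These values are descriptions, since the barcodes share a library and thinning fixes their total. The strongest pair was HSP90AA1 and HSP90AB1, with r of 0.189 in the control and of 0.162, 0.185 and 0.185 after irradiation, in order of dose. HSP90AB1 and HSPD1 followed with 0.108 to 0.160, and the chaperonin partners HSPD1 and HSPE1 had 0.064 to 0.073. HSPA1A and HSPA1B, despite their like promoters, had -0.001 to 0.031, at levels where most barcodes hold 0 UMIs of either. With log scaled UMIs that were not thinned, without low-UMI barcodes, the values were higher, at 0.285 to 0.357 for the HSP90 pair, 0.268 to 0.318 for HSP90AB1 and HSPD1, and 0.171 to 0.208 for HSPD1 and HSPE1. HSPA1A and HSPA1B had 0.0385 to 0.0779 on that measure. No value over all genes stands beside these higher values, and the part of depth in them was not tested.

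**Figure D5:**
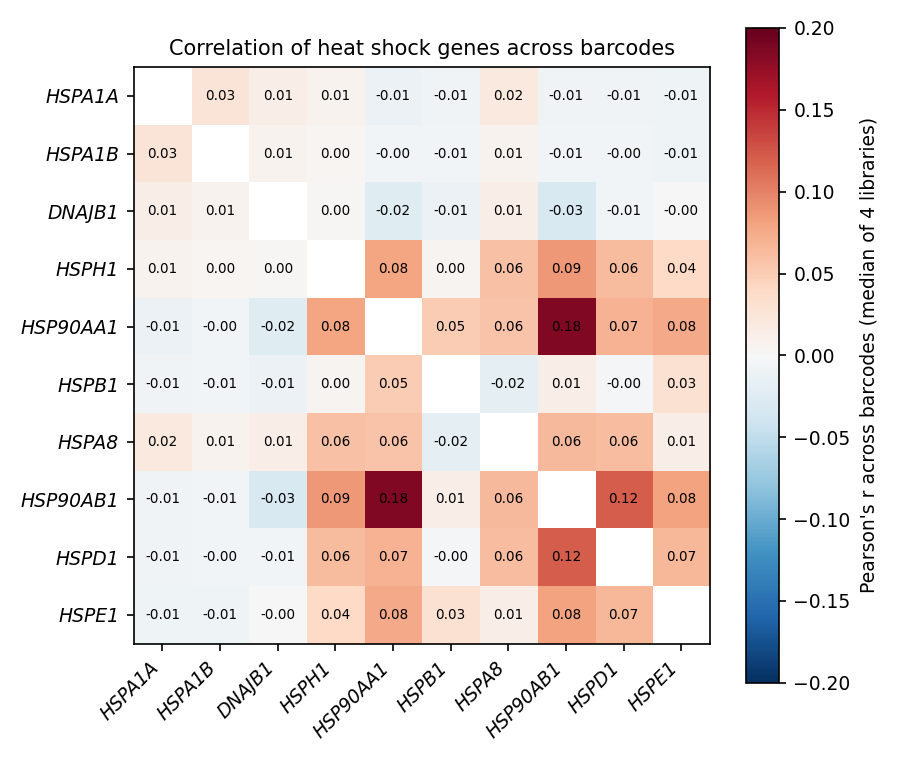
Pearson's r between members across barcodes thinned to 5000 UMIs, as the median of the 4 libraries, with the colour scale from -0.2 to 0.2. The darkest cell off the diagonal is HSP90AA1 with HSP90AB1, and the rows of HSPA1A, HSPA1B and DNAJB1 stay near 0.

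The 3 genes most like each member across barcodes were taken by the smallest r over the 4 libraries, and these values were low. For HSPA1A they were UBE2C, KPNA2 and TOP2A (smallest r 0.054, 0.052 and 0.047), and for HSPA1B they were TOP2A, ARL6IP1 and MKI67 (0.037, 0.031 and 0.030). DNAJB1 was followed by MALAT1, KPNA2 and TOP2A (0.037, 0.036 and 0.033). UBE2C, TOP2A and MKI67 are known from dividing cells. HSPH1 was closest to CCNB1, HSP90AA1 and CENPF (0.086, 0.075 and 0.074), and HSPA8 to CCNB1, CENPF and AURKA (0.091, 0.086 and 0.080). For HSP90AA1 the list read HSP90AB1, PTTG1 and CCNB1 (0.162, 0.149 and 0.140). HSP90AB1 was followed by HSP90AA1, HSPD1 and NCL (0.162, 0.108 and 0.085), HSPD1 by NCL, HSP90AB1 and HNRNPA3 (0.124, 0.108 and 0.081), and HSPE1 by HSP90AB1, HSPD1 and RPL35A (0.070, 0.064 and 0.057). NCL encodes nucleolin, a nucleolar protein of ribosome formation. HSPB1 stood apart with LGALS1, MYL9 and MYL6 (0.074, 0.050 and 0.046), of which MYL9 and MYL6 encode myosin light chains.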

How the data were processed

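The authors deposited raw UMI counts per gene and barcode, 1 matrix per library, without normalization. The submitters' processing notes name Cell Ranger, STAR and GRCh37, and the file header names Cell Ranger 7.0.1. The sources used here give neither the annotation nor the use of intronic reads. Groups were taken from the labels. The number of columns left unused was 0.

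UMIs were summed over every deposited barcode, doublets included, and scaled to CPM. UMIs of the 3′ method mark molecules and were not divided by length. Ratios to the control carry exact conditional binomial 95% intervals, which like those of shares cover counting error only, and the single library per dose limits the precision. Genes needed a mean of 10 CPM (8507 of 36601). Exonic length matched 99.9% of them by identifier, with running medians over 501 genes. Promoters came from RefSeq (GRCh38.p14) and were found for all 10 members. Barcodes with fewer than 5000 UMIs (2051 in the control, then 8953, 5679 and 3980 in order of dose) were left out of thinned values.

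The members and lists were chosen with earlier results of these data known. Named were all members, the 2 highest and 2 lowest genes at 10 mGy of every other list, and the 3 genes most correlated with each member. A gene under this rule is not reported here. Alternatives covered scaling, averaging, barcode filters, length, threshold and thinning. Scripts were tested on simulated data. Python 3.11.15, numpy 2.4.6, scipy 1.17.1 and pandas 2.3.3 were used.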

Additional observations from a re-analysis of the deposited data

How the results depend on the processing

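No paired analysis was possible because each dose has 1 library, and for the same reason no replicate could be left out. Medians below are log2 ratios of the inducible, constitutive and mitochondrial members, in that order unless named. Without scaling (UMIs per barcode), 7 members passed 1.2-fold at 10 mGy, 9 at 100 mGy and 10 at 1 Gy, all of them lower. The medians became -0.412, -0.561 and -0.494 at 10 mGy, -0.535, -0.626 and -0.453 at 100 mGy, and -0.43, -0.445 and -0.596 at 1 Gy. HSP90AA1 was then at 0.8857 and 0.7888 at the low doses, HSPE1 at 0.8521 and 0.9366, and HSPB1 at 0.8077 at 100 mGy. Barcodes differ in depth between libraries, and this scale keeps that difference.

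Median ratio scaling put 6 members higher and 0 lower past 1.2-fold at 10 mGy and 7 and 0 at 100 mGy, in place of 3 and 2 at each. It gave medians of 0.417, 0.268 and 0.335 at 10 mGy and 0.494, 0.403 and 0.576 at 100 mGy, put HSPA1B at 1.013 and 1.084, and gave 0.0124 (constitutive) and -0.139 (mitochondrial) at 1 Gy. Totals without ribosomal protein and mitochondrially encoded genes gave 0.202, 0.0531 and 0.12 at 10 mGy and 0.227, 0.136 and 0.31 at 100 mGy. Means of log scaled UMIs over barcodes gave -0.13, -0.238 and -0.113 at 10 mGy, -0.126, -0.236 and 0.00303 at 100 mGy, and -0.0536, -0.0321 and -0.186 at 1 Gy, with 3 members higher and 4 lower past 1.2-fold at 10 mGy, 1 and 4 at 100 mGy, and 0 and 1 at 1 Gy. The shares of all genes were 7.64% higher and 71.6% lower, 7.37% and 73.5%, and 0.141% and 12.8%. Means of scaled UMIs gave constitutive medians of -0.108 and -0.0351 at the low doses and a mitochondrial median of -0.0708 at 1 Gy.

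Centred on genes of like exonic length, 3 members passed 1.2-fold at 10 mGy (HSP90AA1 and DNAJB1 higher, HSPA1B lower), beside 24.3% of all genes higher and 21.9% lower. HSPH1 came to 1.028 and 1.079. The constitutive medians were 0.126, 0.23 and 0.0276 in order of dose, and the mitochondrial medians 0.249 at 100 mGy and -0.121 at 1 Gy. Centred on like transcript length, chosen after seeing the data, 3 members passed at each low dose (HSP90AA1, HSP90AB1 and HSPA1A, all higher), beside 21.2% of all genes higher at 10 mGy and 22.3% at 100 mGy, with medians of 0.163, 0.149 and -0.121 at 10 mGy and 0.186, 0.287 and 0.0543 at 100 mGy, and a constitutive median of 0.00871 at 1 Gy. HSPH1 was at 1.04 and 1.094, HSPE1 at 0.8902 at 10 mGy and HSPB1 at 0.8746 at 100 mGy. At a threshold of 1.5-fold, 0 members passed at 10 mGy and 0 at 100 mGy. The shares of all genes were taken at 1.2-fold only, so these counts have no background beside them.

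Thinned to 5000 UMIs, the constitutive medians were -0.0246 at 10 mGy and 0.0576 at 1 Gy, and the inducible median at 1 Gy was 0.000268. Without low-UMI barcodes the constitutive median at 10 mGy was -0.0228, and without the 5% of barcodes with the highest UMI count it was 0.0568 at 1 Gy. With HSPA1A and HSPA1B summed, the inducible median at 100 mGy was 0.0579. The count of members with lower dispersion at 100 mGy was 5 when thinned to 2000 UMIs (HSPA1B, HSPH1, HSPA8, HSPD1 and HSPE1). It was 0 on scaled UMIs without thinning, both over every barcode (0) and without low-UMI barcodes (0). No share of all genes was taken under these settings, so the counts have no background beside them. Log scaled UMIs, not thinned, gave 11 pairs with r of at least 0.1 in all libraries, against 2. Neither of these pair counts has a share of all gene pairs beside it. The cause of these shifts was not tested. For the counts and medians over members, the value stayed within 1.5 times the count or within the counting interval in the other 95 combinations of a result and an alternative. These counts add both directions, so the changes of split given above are among them. Of the ratios of single members under these alternatives, 151 stayed within the counting interval, 196 moved out of it, and 13 that were past 1.2-fold changed sides. Ratios within 1.2-fold that changed sides are counted among the 196. HSPA8 at 100 mGy and HSP90AB1 at 1 Gy, for example, each kept their side of 1 under 8 of 12 alternatives. Depth limits HSPA1B most, with 2782 to 3221 UMIs per library.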
